A study of Mus musculus with 8 samples.

Results

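The genes described here are the zinc finger genes of the mouse that sit close together on a chromosome. A protein-coding gene was a member when its symbol was Zfp followed by a digit and its body lay within 100 kb of the body of another such gene in the GRCm38.p6 RefSeq table. Of 397 protein-coding Zfp genes, among 21900 protein-coding genes in all, 226 met this rule and formed 52 clusters on 14 chromosomes. The other 171 had no such neighbour and are called isolated. Near the limit, Zfp972 and Zfp971 were joined at a gap of 97.6 kb and Zfp932 and Zfp605 at 97.8 kb, while Zfp936 and Zfp715 were parted at 104 kb and Zfp994 and Zfp944 at 112 kb. Membership is set by symbol and position alone and by no measured value.

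SMC1, one of the ring-forming cohesin proteins, was mapped by chromatin immunoprecipitation and sequencing (ChIP-seq) in cortical neurons grown from embryonic day 16 Swiss-Webster mice, wild type by label, and used at day 13 in vitro. Resting cultures received no treatment. NMDA cultures received 50 µM NMDA, an agonist of a glutamate receptor class, for 10 min, followed by washout and 50 min of recovery without drug. The 8 samples were 2 SMC1 ChIP and 2 input DNA samples per condition. The labels call the replicates biological, and litters are not named. Etoposide appears in the growth protocol but in the treatment label of no sample. Marker genes of neurons cannot be checked in lists of binding sites.

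Many Zfp genes encode DNA-binding proteins with arrays of C2H2 zinc fingers, and a large class carries a KRAB domain that recruits the corepressor Trim28 and the histone methyltransferase Setdb1 to silence transposable elements. Such genes arose by repeated tandem duplication, which leaves arrays of similar neighbours. Cohesin extrudes chromatin loops and is often halted where CTCF is bound, so listed SMC1 sites mark places where it is held or loaded.

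The data are 1 list of peaks per condition, each peak found in both ChIP replicates at an irreproducible discovery rate (IDR) up to 0.05: 12359 peaks at rest and 1684 after NMDA. The strength of a peak is the sum of the authors' −log10 p values of both replicates. It grows with library depth, which is unknown here, so strengths are read within a list only. Peaks up to 10 kb from the body were assigned to a gene. With 1 list per condition and neighbours that can share a peak, no test was made. The exact Clopper-Pearson 95% intervals of shares and the Newcombe 95% intervals of differences cover counting error over genes only. Both treat genes of the same cluster as independent and make no allowance for shared peaks, so they serve as descriptions and not as tests.

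The starts of the members that carried an NMDA peak open the account, because these 6 were all the members, of 195 with a start in the RefSeq promoter table, whose 300-base start window was overlapped by one. The 250 bases before each start (GRCm38.p6, 5′ to 3′ on the gene's strand) are shown. Zfp60 is added as a start with a resting peak and no NMDA peak, and Zfp955a as a start with neither. The 300-base start window of Zfp955a is 100% identical to that of Zfp955b, which can keep short reads from being placed there. Capitals mark the letters CCCTC or GAGGG, and in Zfp398 and Zfp786 also a longer pattern described further on.
Zfp12, chr5:143234913-143235162, plus strand: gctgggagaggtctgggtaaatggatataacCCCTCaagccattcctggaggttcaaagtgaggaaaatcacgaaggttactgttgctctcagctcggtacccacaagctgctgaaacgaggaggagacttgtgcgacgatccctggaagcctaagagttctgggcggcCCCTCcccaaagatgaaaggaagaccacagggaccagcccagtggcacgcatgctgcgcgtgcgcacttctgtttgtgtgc
Zfp398, chr6:47835411-47835660, plus strand: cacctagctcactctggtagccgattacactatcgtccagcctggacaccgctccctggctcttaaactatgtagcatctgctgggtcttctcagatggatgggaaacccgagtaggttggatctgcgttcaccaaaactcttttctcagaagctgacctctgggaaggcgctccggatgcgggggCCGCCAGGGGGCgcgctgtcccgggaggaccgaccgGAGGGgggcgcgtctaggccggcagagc
Zfp786, chr6:47830506-47830755, minus strand: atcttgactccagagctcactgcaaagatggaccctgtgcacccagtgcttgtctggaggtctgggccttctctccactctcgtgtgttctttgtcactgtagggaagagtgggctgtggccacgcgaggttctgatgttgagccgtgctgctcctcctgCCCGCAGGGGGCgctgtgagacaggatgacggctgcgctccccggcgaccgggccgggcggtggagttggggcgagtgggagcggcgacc
Zfp963, chr8:69749963-69750212, minus strand: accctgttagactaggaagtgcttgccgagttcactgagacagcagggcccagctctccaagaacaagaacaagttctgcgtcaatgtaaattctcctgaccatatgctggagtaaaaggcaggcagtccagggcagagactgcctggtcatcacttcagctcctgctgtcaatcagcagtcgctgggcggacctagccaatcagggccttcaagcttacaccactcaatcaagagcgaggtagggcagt
Zfp287, chr11:62731897-62732146, minus strand: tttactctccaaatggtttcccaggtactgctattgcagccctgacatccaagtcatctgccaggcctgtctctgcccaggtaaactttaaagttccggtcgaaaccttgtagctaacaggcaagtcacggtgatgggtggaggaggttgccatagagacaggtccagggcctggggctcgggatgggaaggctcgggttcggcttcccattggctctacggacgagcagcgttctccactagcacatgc
Zfp428, chr7:24506837-24507086, plus strand: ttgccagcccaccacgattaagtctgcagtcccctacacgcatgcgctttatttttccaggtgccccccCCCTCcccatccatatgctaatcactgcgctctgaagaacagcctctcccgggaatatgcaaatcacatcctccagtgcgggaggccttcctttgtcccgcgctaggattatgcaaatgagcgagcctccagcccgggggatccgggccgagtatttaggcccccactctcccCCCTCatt
Zfp60, chr7:27731159-27731408, plus strand: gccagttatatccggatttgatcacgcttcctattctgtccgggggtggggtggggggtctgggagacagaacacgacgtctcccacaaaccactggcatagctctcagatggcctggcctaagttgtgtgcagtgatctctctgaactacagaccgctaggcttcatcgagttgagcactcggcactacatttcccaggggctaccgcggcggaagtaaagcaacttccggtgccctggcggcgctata
Zfp955a, chr17:33255146-33255395, minus strand: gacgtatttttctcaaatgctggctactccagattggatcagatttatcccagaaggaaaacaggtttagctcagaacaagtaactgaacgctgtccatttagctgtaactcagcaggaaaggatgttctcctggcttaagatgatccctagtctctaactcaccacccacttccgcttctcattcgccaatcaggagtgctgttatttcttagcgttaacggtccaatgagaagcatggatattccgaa

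Clustered Zfp genes had a lower share with a resting SMC1 peak than isolated ones. In the resting list 31 of 226 clustered genes had a peak (13.7%, interval 9.51 to 18.9%), against a background of 38.2% of all protein-coding genes. Isolated Zfp genes stood at 67 of 171 (39.2%, 31.8 to 46.9%), near that background with all lengths pooled. The difference of clustered minus isolated genes was -25.5 percentage points (Newcombe 95% interval -33.9 to -16.8). The clustered genes shared 27 distinct resting peaks and the isolated genes had 101.

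After NMDA, 9 of 226 clustered genes had a peak (3.98%, 1.84 to 7.42%) and 15 of 171 isolated genes (8.77%, 4.99 to 14.1%), with a background of 8.94%. The difference was -4.79 points, and its interval of -10.3 to 0.0156 reached 0. Both conditions gave a peak at 6 clustered genes, NMDA alone at 3, and neither at 192. Of the clustered genes with a resting peak, 6 of 31 also had an NMDA peak (19.4%, 7.45 to 37.5%), close to the background of 19% of protein-coding genes with a resting peak. Isolated genes stood at 14 of 67 (20.9%). The lists differ in size and depth is unknown, so the smaller number of NMDA peaks can show neither loss nor retention of SMC1 at these genes.

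These shares depend on what is counted. When each cluster was counted once, 20 of 52 had a resting peak at a member (38.5%), and the difference from isolated genes shrank to -0.720 points. On the same count 7 of 52 clusters had an NMDA peak (13.5%), and that difference turned to 4.69 points in favour of clusters. A cluster offers several genes to a peak and an isolated gene only 1, so the count per cluster and the count per gene do not measure the same thing. Density avoids this: over gene bodies plus 10 kb, merged, clustered genes held 3.27 resting peaks per Mb (2.16 to 4.76), isolated genes 8.62 (7.02 to 10.5) and all protein-coding genes 7.15. The NMDA densities were 1.21 (0.582 to 2.23), 1.45 and 1.17 peaks per Mb.

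Other families that lie in arrays gave both lower and higher resting shares than clustered Zfp genes, with lengths not matched. Olfactory receptor genes had a resting peak at 24 of 1110 (2.16%) and vomeronasal receptor genes at 4 of 353 (1.13%). Hox genes, the patterning regulators, had one at 26 of 39 (66.7%), from 12 distinct peaks. The clustered protocadherins, cell adhesion genes of neurons, had one at 34 of 57 (59.6%), from 3 distinct peaks that their overlapping or neighbouring bodies share. Median bodies were 0.95 kb in olfactory receptor, 0.96 kb in vomeronasal receptor, 3.74 kb in Hox and 90.3 kb in protocadherin genes. All protein-coding genes stood at 23.8% under 10 kb and 59.2% from 40 kb up, so the protocadherin share was near the background for long genes. After NMDA, 1 olfactory receptor gene and no gene of the other 3 families had a peak.

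**Figure D1:**
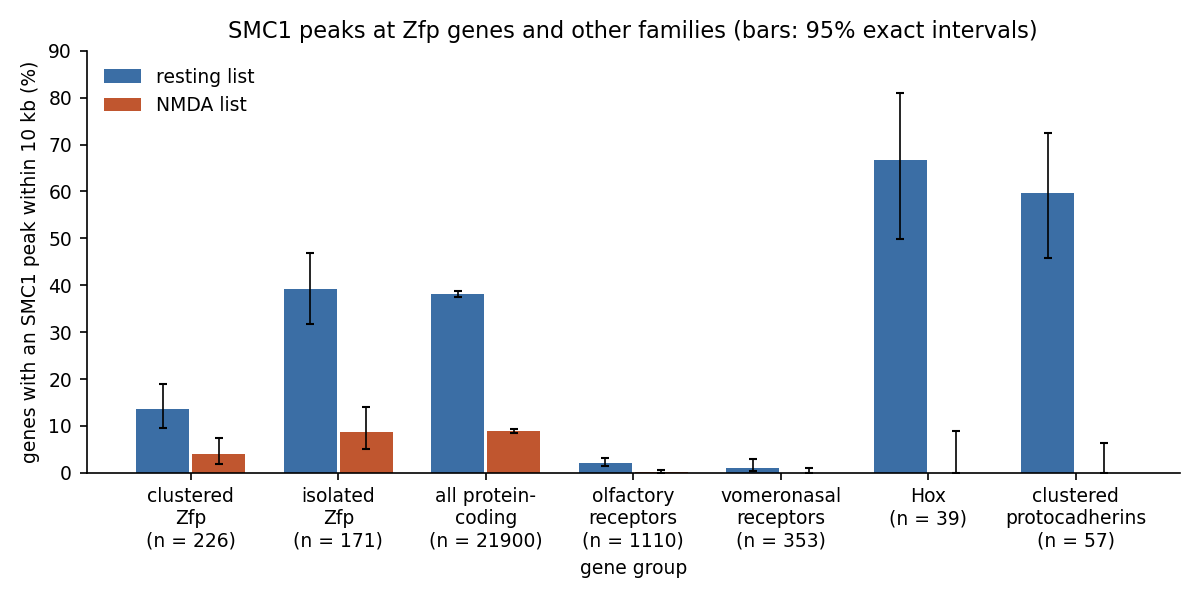
Percent of genes with an SMC1 peak within 10 kb (vertical axis) in the resting list (blue) and the NMDA list (orange) for each gene group, with exact 95% intervals over genes as error bars. Clustered Zfp genes stand at 13.7% at rest, below the isolated Zfp genes at 39.2% and all protein-coding genes at 38.2%.

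Gene length differed between the groups, with a median body of 15.9 kb in clustered and 20.2 kb in isolated genes. Clustered genes had the lower resting share in each of 4 length classes. Under 10 kb the shares were 18.8% of 32 clustered and 40.7% of 27 isolated genes, and from 10 to 20 kb 14.7% of 102 and 22.4% of 58. The intervals overlapped in both of these classes. From 20 to 40 kb they were 11.4% of 79 and 41.9% of 43, and from 40 kb up 7.69% of 13 and 58.1% of 43, with intervals that did not overlap. All protein-coding genes stood at 23.8%, 35.9%, 37.7% and 59.2% in the 4 classes, shortest first. Under 10 kb the clustered interval (7.21 to 36.4%) held that background. From 10 to 20 kb the isolated interval (12.5 to 35.3%) lay below it. With isolated genes weighted to the clustered lengths, the difference was -20.1 points. The longest class was open-ended, with a median body of 49.0 kb in clustered and 99.3 kb in isolated genes, so lengths within it were not matched. Among genes with a body under 40 kb the difference was -18.7 points.

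By cluster size, in classes drawn after the data were seen, 10 of 44 genes in pairs had a resting peak (22.7%), 4 of 50 in clusters of 3 to 4 (8.00%), 11 of 46 in clusters of 5 to 7 (23.9%) and 6 of 86 in clusters of 8 to 23 (6.98%, 2.60 to 14.6%). The shares thus did not fall steadily with size. In the clusters of 8 or more, 0 of 86 genes had an NMDA peak (interval up to 4.20%), a range that holds the 3.98% of all clustered genes. In clusters of at least 3 genes, 9 of 60 first and last genes (15.0%, 7.10 to 26.6%) and 12 of 122 inner genes (9.84%, 5.19 to 16.6%) had a resting peak, with overlapping intervals. Of the 47 other protein-coding genes within the cluster spans, 12 had one (25.5%, 13.9 to 40.3%). These were set apart by symbol alone and may include zinc finger genes under other symbols.

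**Figure D2:**
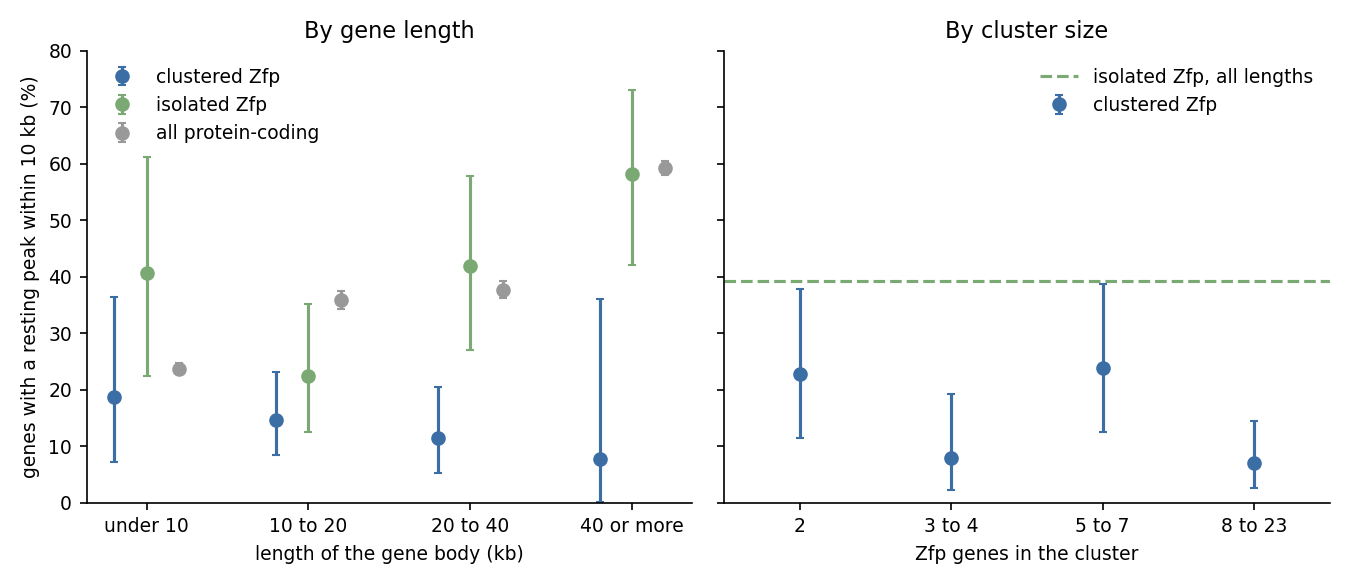
Percent of genes with a resting peak within 10 kb, by length of the gene body in kb (left) and by number of Zfp genes in the cluster (right), with exact 95% intervals over genes; the dashed line is the share of isolated Zfp genes. Clustered genes lie below isolated genes in all 4 length classes, and the clusters of 8 to 23 genes are lowest at 6.98%.

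Among the 52 clusters, 32 with 134 members had no resting peak at a member, and 31 had a peak in neither list. The largest, 23 genes from Zfp712 to Zfp273 over 788 kb of chromosome 13, had none at any member. The 1 resting peak inside its span lay at Rslcan18, a gene that the symbol rule leaves out. It had a strength of 32.1 and lay over 10 kb from each member. The nearest resting peaks outside stood 1862 kb and 774 kb away. The 15 genes from Zfp84 to Zfp146 on chromosome 7, over 401 kb, had none in the span, and the next resting peaks lay 246 kb to the left and 11.2 kb to the right. The 9 genes from Zfp978 to Zfp933 on chromosome 4, over 724 kb, fell in a stretch of 2721 kb with no resting peak. Across the genome, gaps between neighbouring resting peaks had a median of 87.9 kb and a 99th percentile of 2117 kb. Each gap counts once there, and a peak-free span of 724 kb can lie only in a longer gap. These values therefore do not rate how unusual that stretch is.

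The other large clusters held between 0 and 3 resting peaks at members. The 13 genes from Zfp677 to Zfp943 on chromosome 17 had 3 peaks at 3 genes, and the 10 from Zfp180 to Zfp94 on chromosome 7 had 1 peak shared by 2 genes. The 8 genes from Zfp871 to Zfp563 on chromosome 17 had none, with 1 peak in the span at Cyp4f14, a cytochrome P450 gene. The 8 genes from Zfp607b to Zfp850 on chromosome 7 had 1, at the start of Zfp60. The 7 genes from Zfp553 to Zfp689 on chromosome 7 had 2 resting peaks and 1 NMDA peak. The 7 genes from Zfp786 to Zfp746 on chromosome 6 had 1 resting peak and 3 NMDA peaks at members. A further resting peak of 22.1 lay in that span, 13.6 kb from Zfp956, and 1 of the 3 NMDA peaks, at Pdia4, lay outside the span, which itself held 2 peaks of each list. Chromosome 7 held 76 members, 12 of them with a resting peak (15.8%), beside 7 of 17 isolated genes there (41.2%) and 32.7% of all protein-coding genes there. By chromosome the counts ran from 0 of 27 members on chromosome 13 (interval up to 12.8%), 0 of 14 on chromosome 4 (up to 23.2%) and 0 of 12 on chromosome 9 (up to 26.5%) to 4 of 11 on chromosome 6 (36.4%, 10.9 to 69.2%) and 4 of 9 on chromosome 11 (44.4%, 13.7 to 78.8%). Chromosomes with 5 or fewer members ranged from 0 of 4 on X to 2 of 3 on chromosome 18.

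**Figure D3:**
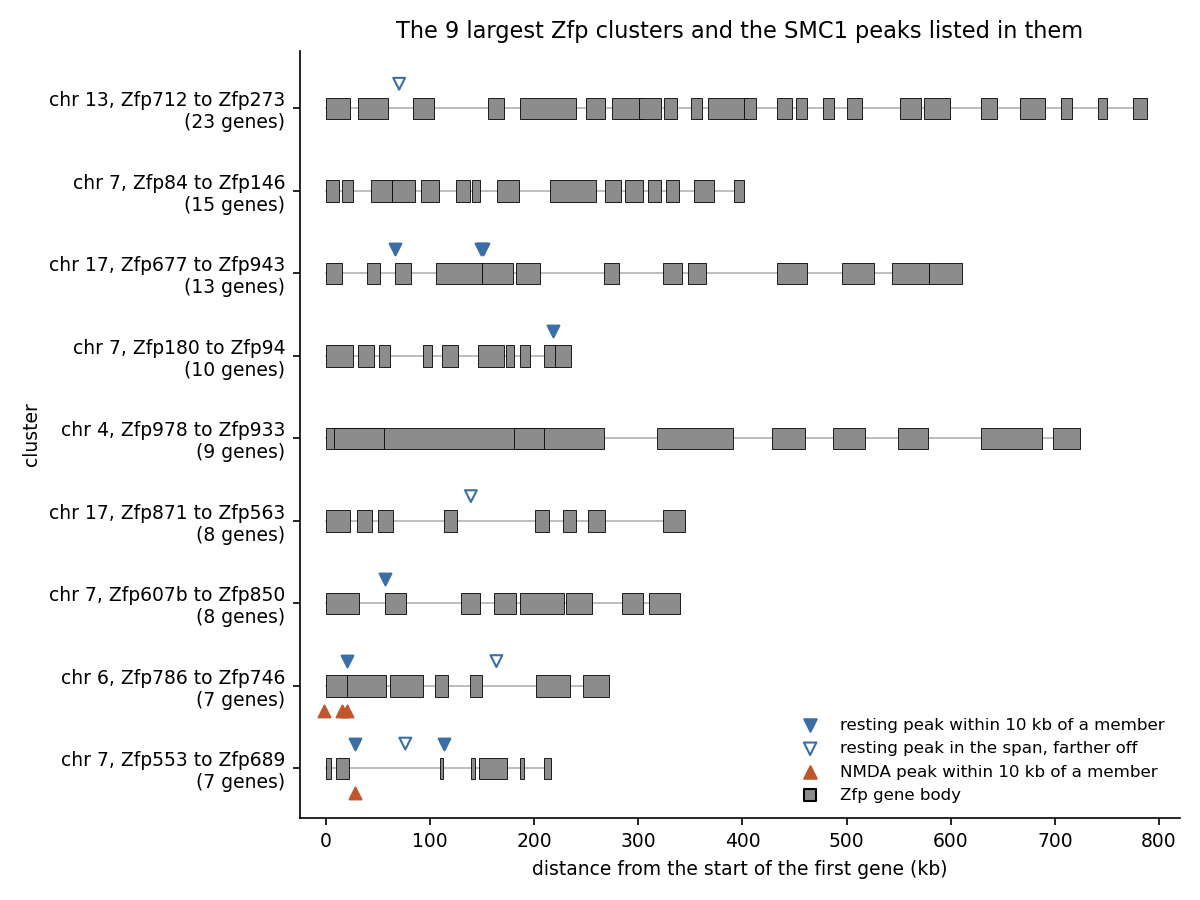
Maps of the 9 largest clusters, with distance from the start of the first gene in kb on the horizontal axis, Zfp gene bodies as grey boxes, resting peaks as blue triangles above and NMDA peaks as orange triangles below; open triangles are resting peaks in the span over 10 kb from a member. The 23-gene cluster on chromosome 13 and the 15-gene cluster on chromosome 7 show no peak at a member, and the 7-gene cluster on chromosome 6 shows 3 NMDA peaks, 1 of them outside its span.

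The strongest peak at a clustered gene lay inside Zfp286 (chr11:62751951-62789506), at chr11:62756662-62757301 and at the start of the antisense RNA gene Zfp286os. Its resting strength was 140, with 69.9 and 70.0 in the replicate columns, rank 33 of 12359. The NMDA peak there had 35.6, with 26.2 and 9.35 in its columns. The resting columns were nearly equal and the NMDA columns were not. No other member came near this level, as the next was Zfp663 at 51.1 (24.8 and 26.3), inside that gene.

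Among the other resting peaks, Zfp787 had 50.0 (25.3 and 24.7) at a site 3.902 kb outside its body, and Zfp334 had 40.2 (19.5 and 20.7) at one 3.25 kb outside. Zfp668 and Zfp646 shared a peak of 41.5 at the start of Zfp668, carried by 1 replicate column at 34.4 beside 7.13 in the other. Peaks at Zfp239 (32.8), Zfp248 (31.9), Zfp771 (29.4) and Zfp692 (29.4) lay at starts of neighbours, respectively Gm38882, Bms1, Dctpp1 and Gm39827. Zfp60 had 25.9 at its own start, and Zfp53 and Zfp52 shared peaks of 25.0 and 23.7.

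**Figure D4:**
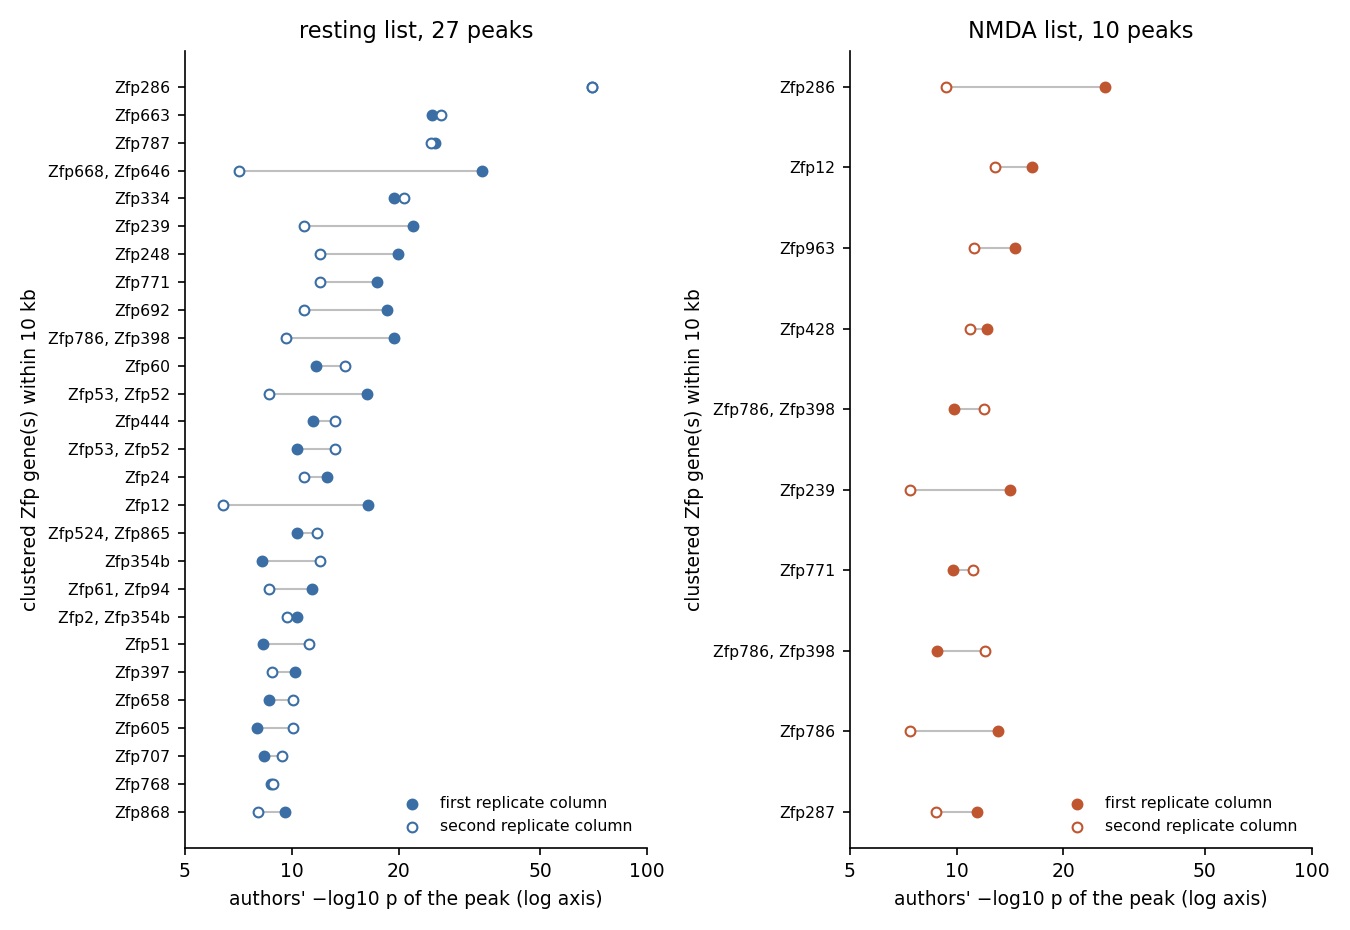
The authors' −log10 p of each peak within 10 kb of a clustered Zfp gene in the first (filled) and second (open) replicate column, on a log axis, for the 27 resting peaks (left) and 10 NMDA peaks (right), sorted by their sum. Zfp286 stands apart at rest with 69.9 and 70.0, and the columns differ most at the shared peak of Zfp668 and Zfp646.

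All 10 NMDA peaks at clustered genes lay within 1 kb of a listed start, 6 at the member's own and 4 at another gene's. At isolated genes 8 of 17 NMDA peaks lay at the gene's own start and 2 at another gene's. Of those 17, only 12 were at a gene with a listed start. Place was not counted over the whole NMDA list, so the clustered count has no background. At Zfp12 (chr5:143235138-143248834) a peak covered the start in both lists, with 22.8 at rest (16.4 and 6.41) and 29.2 after NMDA (16.3 and 12.8). At the start of Zfp398 the resting peak had 29.0 (19.4 and 9.67) and the NMDA peak 20.9 (8.83 and 12.02). Both also overlapped the body of Zfp786 (chr6:47815536-47836197, minus strand), near its 5′ end. A further NMDA peak of 21.7 (9.82 and 11.9) lay at the listed start of Zfp786, which is inside that body. Another of 20.4 (13.1 and 7.38) lay at the start of the neighbour Pdia4, which encodes a protein disulfide isomerase. Zfp239 had 21.6 after NMDA (14.2 and 7.40), and Zfp771 20.9 (9.77 and 11.1). The 3 genes with an NMDA peak alone were Zfp963 at 25.8 (14.6 and 11.2), Zfp428 at 23.1 (12.2 and 10.9) and Zfp287 at 20.2 (11.5 and 8.75), each over its own listed start. The listed start of Zfp428 lay inside its body (chr7:24504548-24515682, plus strand). A site that is in 1 list only may have missed the IDR limit in the other.

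As a group the clustered resting peaks were weak. Their median strength was 23.7 (17.6 to 140), beside 30.2 for the whole resting list and 28.9 at isolated genes, and 7 of 27 lay above the list median. At an IDR up to 0.01 stood 9 of 27 (33.3%), against 56.9% of the list and 57 of 101 at isolated genes (56.4%). NMDA peaks at clustered genes had a median of 21.7 (20.2 to 35.6), beside 23.0 for their list. Of the 27 resting peaks, 5 overlapped an NMDA peak (18.5%), against a background of 10.7% of resting peaks, and 14 of 101 did at isolated genes (13.9%). Members shared 7 of the 27 resting and 2 of the 10 NMDA peaks.

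Place could be read where RefSeq listed a start. Of 20 such resting peaks at clustered genes, 10 lay within 1 kb of the member's own start (50.0%), and of 67 at isolated genes 24 did (35.8%). In the 300-base start window, 8 of 195 clustered genes had a resting peak (4.10%, 1.79 to 7.92%), with a background of 12%, and 19 of 136 isolated genes did (13.97%). For NMDA peaks the counts were 6 of 195 (3.08%, 1.14 to 6.58%), with a background of 4.77%, and 6 of 136 (4.41%).

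The start windows also differed in sequence. The median number of CpG dinucleotides in 300 bases was 11 in clustered, 17 in isolated and 13 in all protein-coding genes, and it was 16.5 in the 22 clustered genes with a resting peak and a listed start. CCCTC on either strand, letters held in the CTCF motif, occurred in 112 of 195 clustered (57.4%), 97 of 136 isolated (71.3%) and 68.4% of all windows. A longer CTCF-like pattern, CCANNAGNNGGC on either strand, matched 2 of 195 clustered (1.03%), 5 of 136 isolated (3.68%) and 2.32% of all windows, and neither clustered match was at a start with a peak. A looser form, CCNNNAGNNGGC, was adopted after the Zfp398 sequence had been seen, so its matches in Zfp398 and Zfp786, shown in capitals above, are no finding. It matched 10 of 195 clustered (5.13%), 23 of 136 isolated (16.9%) and 9.87% of all windows. A match is a description of letters, and the part of base composition in the shares of peaks was not tested.

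Some start windows repeated sequence of another, which can keep short reads from being placed. A stretch of 50 bases was shared with another start window in 32 of 195 clustered (16.4%), 12 of 136 isolated (8.82%) and 9.91% of all windows, a measure added after the data were seen. None of the 32 clustered genes had a resting peak (0%, interval up to 10.9%), and 2.89% of the 1733 such protein-coding genes did. Among genes with no shared stretch, 22 of 163 clustered (13.5%, 8.66 to 19.7%) and 47 of 124 isolated genes (37.9%, 29.3 to 47.1%) had one. Of the 12 isolated genes with a shared stretch, 0 had a resting peak (interval up to 26.5%). The measure compares start windows with each other and not the bodies plus 10 kb over which peaks were counted. The windows of Zfp955a and Zfp955b, in a 4-gene cluster on chromosome 17 with no peak in either list, were 100% identical. Among pairs within the same cluster, the next reached 83%. That ranking leaves out likeness to other windows. Zfp968 shared 100% of its 50-base stretches with another start window, Zfp97 96.8%, Zfp965 95.2% and Zfp600 94.0%. The part of read placement in the shares was not tested.

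The genes of the known-function list included 6 clustered ones, Zfp809, a silencer of retroviral DNA, Zfp568, a repressor of a placental Igf2 transcript, and Zfp932, Zfp961, Zfp110 and Zfp92. Of these 6, 0 had a peak in either list (interval up to 45.9%), a range that holds both the 13.7% of all clustered genes and the 38.2% of all protein-coding genes. Of 14 isolated ones, 7 had a resting peak (50.0%, 23.0 to 77.0%) and 3 an NMDA peak (21.4%, 4.66 to 50.8%), and these intervals overlap those of the 6 clustered genes. Peaks in both lists were at Zfp423, a neural developmental regulator, at 50.3 and 33.4 in the resting and NMDA lists, Zfp36, an RNA-decay factor, at 51.3 and 21.7, and Zfp536 at 39.1 and 17.96. Both Zfp36 peaks lay at the start of the neighbour Plekhg2, 3.10 kb (resting) and 3.26 kb (NMDA) outside the body of Zfp36. Zfp462 (46.3), Zfp143 (34.1), Zfp521 (24.1) and Zfp335 (19.2) had a resting peak alone. Zfp57, Zfp42, Zfp281, Zfp410, Zfp804a, Zfp369 and Zfp711 had none.

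The strongest resting peaks within 10 kb of isolated genes were those of Zfp36l2 (94.7), Zfp503 (86.6), Zfp608 (85.0), Zfp326 (70.8), Zfp219 (66.3) and Zfp90 (64.6). The peaks of Zfp36l2, Zfp326 and Zfp90 lay outside the bodies, by 2.73, 7.37 and 5.84 kb. Those of Zfp503, Zfp608 and Zfp219 overlapped the bodies. The strongest NMDA peaks at isolated genes lay at Zfp41 (38.4), Zfp319 (35.7), Zfp423 (33.4), Zfp703 (31.3), Zfp503 (30.5) and Zfp618 (30.1). Zfp286 alone among clustered genes exceeded the first 6 at rest. Of 18 genes for partners of KRAB proteins, 10 had a resting peak (55.6%, 30.8 to 78.5%), an interval that holds the 38.2% of all protein-coding genes. An NMDA peak was at 5 of them (27.8%, 9.69 to 53.5%), beside 8.94% of all protein-coding genes. Lengths were not matched, with a median body of 34.1 kb in these 18 genes and 17.1 kb in all protein-coding genes. The NMDA share of all protein-coding genes was 5.33% under 10 kb and 14.5% from 40 kb up. The strongest resting ones were at the histone deacetylase gene Hdac1 (54.8), Atf7ip (46.5), Smarcad1 (45.2) and Pphln1 (44.4). Trim28 had 23.1 at rest and 25.3 after NMDA, and Setdb1 an NMDA peak alone (25.0).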

How the data were processed

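SMC1 ChIP-seq peak lists of resting and NMDA-treated neurons were used, 1 per condition. The tools named are MACS2, BWA, SAMtools, Trimmomatic and FastQC, with builds mm10 and GRCm38.p6, per the submitters' processing notes, and their options are given in no source used here. The authors deposited, for each peak, the −log10 p in each of 2 replicates, their sum and the −log10 of the IDR, and the deposited lists also hold an IDR score. Replicate columns carry no replicate numbers. Inputs entered only through the authors' peak calling, and depth is unknown.

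Gene bodies came from a RefSeq table of GRCm38.p6 without strand, and starts from a RefSeq promoter table that held 195 of the 226 clustered and 136 of the 171 isolated genes. Peaks within 10 kb of a body were counted with Python 3.11.15, pandas 2.3.3, numpy 2.4.6 and scipy 1.17.1, by scripts tested on simulated data. Protein features (C2H2 fingers, the KRAB box) had been planned and were not analysed here, since no protein table was used. The members and lists were chosen with earlier results of these data known. Named genes are all clustered genes with an NMDA peak, the 15 clustered genes with the strongest resting peaks, the 8 largest clusters (9, as 2 tied), the 6 strongest isolated genes per list, the known-function list and the 4 strongest partner genes. Trim28, Setdb1 and the genes near peaks were named after their values were seen, as were the cluster size classes, the shared 50-base measure, the first and last gene classes and the looser motif. Windows of 2 and 50 kb, an IDR up to 0.01, links of 50 and 200 kb, counting clusters once, nearest genes only, omission of chromosome 7 and 2 length adjustments were tried.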

Additional observations from a re-analysis of the deposited data

How the results depend on the processing

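The clustered share with a resting peak, 13.7%, moved to 9.29% within 2 kb, 34.96% within 50 kb, 3.98% at an IDR up to 0.01 and 38.46% with each cluster counted once. The NMDA share, 3.98%, moved to 8.85%, 0.885% and 13.46% under the last 3 of these. The resting difference from isolated genes ranged from -29.3 to -18.7 points in the other alternatives and was -0.720 with each cluster counted once. The NMDA difference ranged from -5.19 to -2.04 points and reversed to 4.69 when each cluster was counted once, where a cluster has several genes to meet a peak. The NMDA share among members holding a resting peak stayed between 11.1% and 30.0%. Density fell from 3.27 to 1.09 peaks per Mb at an IDR up to 0.01, where fewer peaks are counted. The length adjustments were added after seeing the data. Leaving out a replicate was not run because each deposited list already requires both. No paired analysis was possible because the replicate columns carry no numbers and the results come from no test.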
